A study of Mus musculus with 6 samples.

Results

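The collagen gene family was followed in the forearm bones of newborn mice, in 3 wild-type samples and 3 samples from littermates with the Tnni2 mutation named del175k. Its members were the genes whose symbol is Col, a type number, the letter a and a chain number, taken from probe sets that the platform's annotation ties to exactly 1 gene. This gave 33 genes out of 5780 named genes, measured by 34 probe sets. Col6a6 alone had more than 1 probe set, and the brighter of its probe sets stood for it. Another 12 genes of the 45 in the class lists used here, among them Col17a1 and Col4a3, were not analysed here.

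Collagens are secreted proteins in which 3 chains wind into a triple helix, with glycine repeated at a fixed step along each chain. Fibrillar collagens (types I, II, III, V, XI, XXIV and XXVII) pack into the fibrils that give bone and cartilage their strength. FACIT collagens sit on the surface of those fibrils, network collagens form sheets or lattices, and beaded filaments of type VI surround cells. Bone matrix is mostly type I, made by osteoblasts, while growth cartilage is built of types II, IX and XI, and its hypertrophic zone of type X.

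Tnni2 encodes the fast skeletal muscle form of troponin I; its array intensity, from 102 to 258 in wild-type and 127 to 198 in mutant bone, does not tell the alleles apart. All mice were newborn and of strain 129sv, and the groups differed by genotype only, as far as the labels say. The radius and ulna were collected, total RNA was labelled with biotin, and each sample went onto 1 Affymetrix whole-transcript array read in a single colour. The labels speak of pairs of littermates but do not say how many mice each array stands for or whether the mutants carried 1 or 2 mutant alleles. The spread behind the p-values is therefore that between these samples, and it may be partly technical.

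Values were intensities, a linear brightness per probe set in arbitrary units, and array medians ran from 39.6 to 48.4. The lowest median and the most probe sets under an intensity of 20 (1205, against 405 to 558 on the other arrays) were on the array of wild-type replicate 1. Of the osteoblast list 3 of 7 genes were measured (Ibsp, Alpl and Sp7), and of the list for resting and proliferating chondrocytes 9 of 10. None of them was at 0 on any array. As every probe set reached 20 on at least 3 arrays, this does not show which tissue was sampled. The dissected samples held more than skeletal tissue. The summed level of 8 skeletal muscle genes was 3834 to 7750.2 in wild-type bone and 4707 to 6575 in mutant bone. That of 6 epidermal genes was 47.3 to 1798 and 51.3 to 460.4, highest on wild-type replicates 1 and 2. In such bulk samples fewer cells of a type and less RNA per cell cannot be told apart.

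No collagen gene differed detectably between mutant and wild-type bone, and the log2 differences (mutant minus wild-type) of the 33 genes ran from -0.44 for Col15a1 to 0.37 for Col10a1. None of the 33 genes passed a limma adjusted p of 0.05, where 0 of 8997 probe sets passed (0.0%), and none had an unadjusted p under 0.05, where 7.44% of all probe sets had one (5.74% higher and 1.7% lower in the mutants). The smallest adjusted p of a collagen was 0.686, for Col5a3. By their means 14 genes were higher and 19 lower in the mutants, with a median of -0.077. Over all probe sets 56.7% were higher, 43.3% were lower and the median was 0.045. The median size of the difference, ignoring its sign, was 0.13 for the collagens and 0.20 for all probe sets.

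The data also bound how large a difference could have been. In 32 of the 33 genes the 95% interval of the log2 difference lay between -1 and 1, that is, inside a 2-fold change either way, which held for 79.4% of all probe sets. The exception was Col8a1, with an interval of -0.37 to 1.05. Inside a 1.5-fold change either way lay the intervals of 8 genes, or of 22.5% of all probe sets. For the other genes a 1.5-fold difference in at least 1 direction was within the interval that 3 arrays per group allow. The 2-fold bound moved with the fit. Among the alternatives that kept all 33 genes it held for 28 without mutant replicate 3, the fewest, and for 33 without wild-type replicate 1. In Col5a3 and Col15a1 the mutant arrays all read lower than every wild-type array, so in 2 of 33 genes, against 3.89% of all probe sets. No collagen had all mutant values above all wild-type values, an order seen in 9.18% of all probe sets. These counts depended on the scaling. After centring each array on its median, all mutant values were lower in 7 of 33 genes (Col5a1, Col5a3, Col8a2, Col15a1, Col16a1, Col18a1 and Col27a1), against 6.09% of all probe sets, and again higher in none, against 9.7%.

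**Figure D1:**
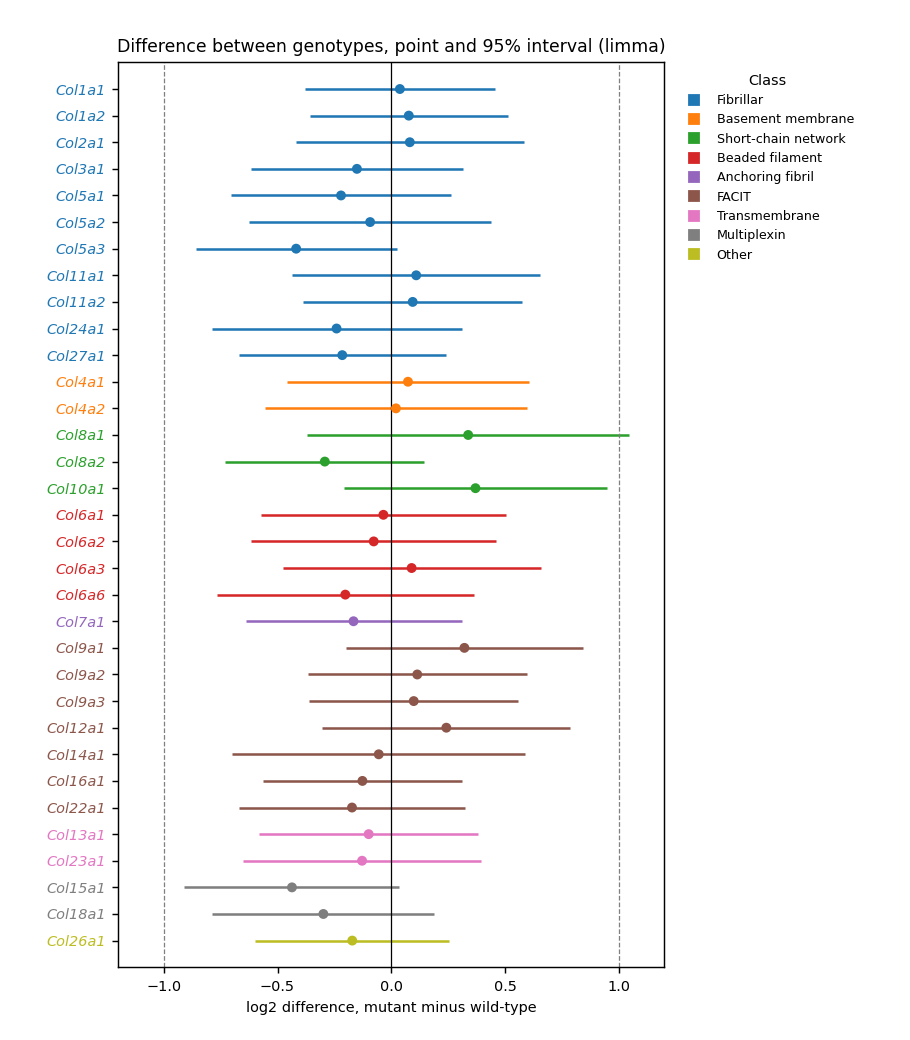
The difference between genotypes for each of the 33 collagen genes, on the log2 scale as mutant minus wild-type, with points for the estimate and lines for its 95% interval from limma (3 arrays per group), coloured by structural class. Every interval crosses 0, and only that of Col8a1 passes the dashed line at 1.

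**Figure D2:**
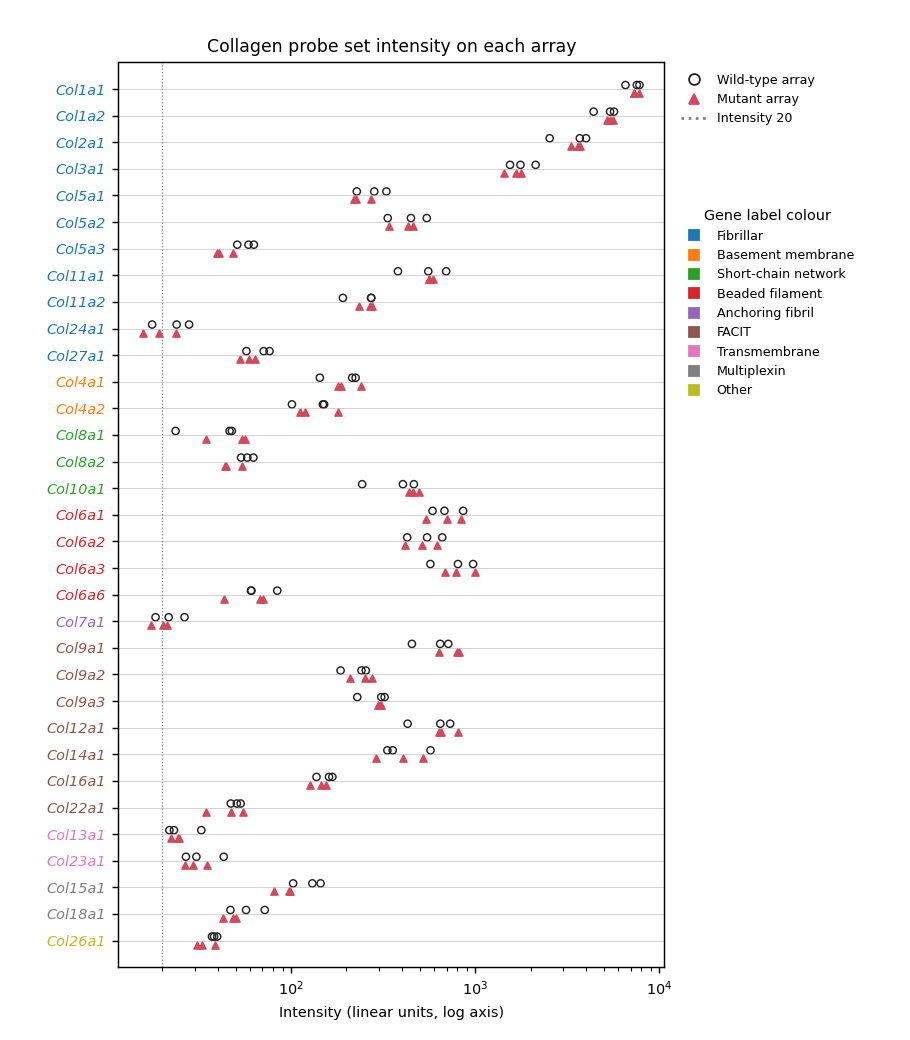
Intensity of each collagen probe set on every array, on a log axis, with open circles for the 3 wild-type and filled triangles for the 3 mutant arrays; the dotted line marks an intensity of 20. The groups overlap in all genes but Col5a3 and Col15a1, and in many genes the lowest circle, wild-type replicate 1, lies apart from the other circles.

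The chains of type I collagen, the main protein of bone matrix, had nearly the same level in both genotypes. Col1a1, which encodes the alpha 1 chain present in 2 copies per molecule, read 6552, 7807 and 7552 on wild-type replicates 1, 2 and 3 and 7321, 7331 and 7785 on mutant replicates 1, 2 and 3. The mutant values lay within the wild-type range. Its log2 difference was 0.038 ± 0.19 (SE), with a 95% interval of -0.38 to 0.46 (limma adjusted p = 0.97). Col1a2, for the alpha 2 chain that completes the molecule, was at 5159.6 ± 673 in wild-type bone and 5412 ± 202 in mutant bone (SD, n = 3), a log2 difference of 0.077 ± 0.19 (SE; 95% interval -0.36 to 0.51). Both wild-type minima were on replicate 1, the array with the lowest median. Without that array the differences were -0.039 for Col1a1 and -0.034 for Col1a2.

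The RefSeq table of promoters for GRCm38.p6 held 28 windows for 25 of the 33 collagen genes, and the 250 bases before the annotated start are used here. A few are printed because they show how unlike the start regions of these genes are. Col1a2 stands for the bright matrix genes of bone, Col10a1 for a gene of a single cartilage zone, and Col8a1 and Col8a2 for partner chains whose means lay on opposite sides of the wild-type level. Capitals mark 3 motifs, each searched on both strands: the TATA box with the letters TATAAA, the box of the factor NF-Y with the letters CCAAT, and the GC box of Sp1-type factors with the letters GGGCGG. All windows read 5′ to 3′ along the gene and end at the base before its start. Those of Col1a2 (chr6:4505368-4505617, plus strand), Col8a2 (chr4:126286544-126286793, plus strand) and Col8a1 (chr16:57754738-57754987, minus strand) lie outside the annotated gene spans, while that of Col10a1 (chr10:34389731-34389980, plus strand) lies within the span of Nt5dc1.
Col1a2: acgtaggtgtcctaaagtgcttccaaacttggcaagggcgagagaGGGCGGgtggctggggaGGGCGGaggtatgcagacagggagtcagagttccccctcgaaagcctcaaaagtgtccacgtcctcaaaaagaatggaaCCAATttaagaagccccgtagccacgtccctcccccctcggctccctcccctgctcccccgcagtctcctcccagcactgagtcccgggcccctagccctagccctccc
Col10a1: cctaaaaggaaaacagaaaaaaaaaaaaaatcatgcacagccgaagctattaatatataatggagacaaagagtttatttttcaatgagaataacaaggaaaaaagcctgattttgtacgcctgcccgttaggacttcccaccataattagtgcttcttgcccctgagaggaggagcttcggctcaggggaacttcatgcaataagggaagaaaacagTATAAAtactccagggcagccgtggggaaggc
Col8a1: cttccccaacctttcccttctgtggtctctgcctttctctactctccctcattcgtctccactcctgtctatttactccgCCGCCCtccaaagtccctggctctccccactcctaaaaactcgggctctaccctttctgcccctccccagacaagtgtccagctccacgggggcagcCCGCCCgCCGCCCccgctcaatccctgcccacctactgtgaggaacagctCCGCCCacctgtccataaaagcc
Col8a2: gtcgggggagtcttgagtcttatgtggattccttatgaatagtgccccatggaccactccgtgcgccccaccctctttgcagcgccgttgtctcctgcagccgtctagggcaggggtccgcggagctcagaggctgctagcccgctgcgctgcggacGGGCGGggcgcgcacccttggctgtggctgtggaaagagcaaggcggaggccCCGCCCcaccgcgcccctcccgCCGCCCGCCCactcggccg

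The Col1a2 window had 1 CCAAT box, beginning 109 bases before the start, and 2 GC boxes. In the Col10a1 window a TATA box began 32 bases before the start, and no GC or CCAAT box was found. The Col8a1 and Col8a2 windows had 4 GC boxes each, of which those nearest the start in Col8a2 overlap, and neither had a TATA box. Over all collagen windows a GC box was found in 17 of 28, against 32.7% of the 32851 windows of the same length in the table. A TATA box was found in 4 of 28 (Col3a1, Col10a1, Col13a1 and Col11a2), against 12.4%, and a CCAAT box in 9 of 28, against 33.9%. The median share of G and C was 60.6% in the collagen windows and 52.4% in all windows. Not matched were Col1a1, Col2a1, Col5a2, Col9a3, Col12a1, Col14a1, Col22a1 and Col26a1. These are matches of letters and say nothing of which factor binds.

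Of the 11 fibrillar genes 5 had higher and 6 lower means in mutant bone (median log2 difference -0.093). Those outside cartilage and type I were all lower by small amounts that did not pass, although Col5a2 turned higher when some arrays were left out. Col3a1, for the type III collagen of periosteum, vessels and loose tissue, was at 1813 ± 295 in wild-type bone and 1626 ± 178 in mutant bone (SD, n = 3; log2 difference -0.15 ± 0.21, SE; limma adjusted p = 0.856). Type V collagen lies inside type I fibrils and limits their width. Its chain genes were Col5a1 at -0.22 ± 0.21, Col5a2 at -0.093 ± 0.24 and Col5a3 at -0.42 ± 0.20 on the log2 scale (difference ± SE).

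Col5a3 encodes a minor type V chain, and it was the collagen with the smallest p. It read 51.0, 62.8 and 58.8 in the wild-type samples and 48.7, 40.8 and 39.7 in the mutant samples. The highest mutant value, on replicate 1, lay just under the lowest wild-type value, also on replicate 1. The group means were 57.5 ± 5.98 in wild-type bone and 43.1 ± 4.91 in mutant bone (SD, n = 3). The log2 difference of -0.42 ± 0.20 (SE) had a 95% interval of -0.86 to 0.023, and limma gave an adjusted p of 0.686. Leaving out each array in turn gave -0.51 to -0.35.

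Col24a1, a fibrillar collagen gene known from forming bone, was among the dimmest members on this array design. Its values were 17.6, 27.9 and 23.9 in wild-type bone and 19.1, 15.7 and 23.7 in mutant bone. The groups overlapped, and 3 of its 6 values were under 20, a level at which the unstated background handling bears on any fold. Its log2 difference was -0.24 ± 0.25 (SE), with an adjusted p of 0.807 from limma.

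Of the 8 cartilage types, 7 had higher means in mutant bone and 1 a lower mean, with a median log2 difference of 0.10. In 7 of these 8 genes the lowest of the 6 values was on wild-type replicate 1, as it was in 50.0% of all probe sets. Without that array 2 of the 8 were higher (Col9a1 and Col10a1) and the median was -0.066. With array weights 3 of the 8 were higher and the median was -0.032, and with quantile normalization 6. None passed the threshold in any of these fits. The summed level of 9 genes of resting and proliferating chondrocytes was 1809 on wild-type replicate 1, 2432 to 2606 on the other wild-type arrays and 2176 to 2655 on the mutant arrays. Of these 9 markers 4 (Acan, Sox9, Matn1 and Hapln1) were lowest on wild-type replicate 1, and the others on mutant replicate 1 or 3. The part of this in the collagen values was not tested.

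Col2a1 encodes type II collagen, the main fibril of cartilage. It read 2539.7, 3701 and 4002 in the wild-type samples and 3603, 3715 and 3329.6 in the mutant samples. Apart from wild-type replicate 1 the values lay close together, and the log2 difference was 0.081 ± 0.22 (SE; 95% interval -0.42 to 0.58; limma adjusted p = 0.941). Type XI collagen forms the core of the cartilage fibril and sets its diameter. Col11a1 stood at 381, 696 and 556 in wild-type bone and 561, 563 and 587 in mutant bone, a difference of 0.11 ± 0.24 (SE) on the log2 scale. The mutant values spanned far less than the wild-type values, which lay on both sides of them. Col11a2 stood at 191, 273 and 272 in wild-type and 276, 235 and 267 in mutant bone, a log2 difference of 0.094 ± 0.21 (SE), and its groups overlapped too.

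Type IX collagen, a FACIT molecule built of 3 different chains, decorates the type II fibril. Col9a1 had values of 454, 715 and 646 in wild-type bone and 813, 794 and 633 in mutant bone. Mutant replicates 1 and 2 were above every wild-type array, while mutant replicate 3 lay below wild-type replicates 2 and 3. The log2 difference was 0.32 ± 0.23 (SE; 95% interval -0.20 to 0.84; limma adjusted p = 0.751), and leaving out 1 array at a time gave 0.13 to 0.46, with the smallest value without wild-type replicate 1. Col9a2 read 186, 255 and 241 in wild-type and 276, 251 and 209 in mutant bone, with mutant replicates 1 and 2 around the top of the wild-type range and mutant replicate 3 low. Col9a3 read 229, 322 and 309 in wild-type and 310.0, 305 and 296 in mutant bone, and its mutant arrays differed by little. The log2 differences were 0.11 ± 0.21 for Col9a2 and 0.10 ± 0.21 for Col9a3 (SE).

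Col10a1, whose type X collagen marks hypertrophic chondrocytes next to the advancing bone, had the largest positive difference of the family. Its values were 243, 405 and 465 in wild-type bone and 459, 437 and 493 in mutant bone. Wild-type replicate 1 stood far below the rest, and wild-type replicate 3 lay above mutant replicates 1 and 2. The log2 difference was 0.37 ± 0.26 (SE; 95% interval -0.21 to 0.95; limma adjusted p = 0.746) with all arrays and 0.092 without wild-type replicate 1. Of the other hypertrophic genes, Mmp13, the collagenase of this zone, stood at 1.10 ± 0.34, Panx3, a channel protein, at -0.49 ± 0.30 and Ihh, the signal that paces hypertrophy, at -0.45 ± 0.23 (log2 difference ± SE), and none passed. The summed level of the 4 measured hypertrophic markers was 302 to 531 in wild-type bone and 586 to 827 in mutant bone, with Mmp13 making up most of it on the mutant arrays.

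Col27a1, a fibrillar collagen of developing cartilage, was the cartilage type with a lower mean in the mutants. It stood at 57.3, 71.0 and 76.4 in wild-type bone and 59.1, 52.7 and 63.8 in mutant bone. Mutant replicate 3 and mutant replicate 1 lay above wild-type replicate 1, so the groups overlapped. On the log2 scale the difference was -0.22 ± 0.20 (SE; limma adjusted p = 0.79), and it was negative with every array left out (-0.34 to -0.13).

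Type IV collagen forms the network of basement membranes around vessels, muscle fibres and nerves. Its genes Col4a1 and Col4a2 lie head to head, with RefSeq starts 21 bases apart on opposite strands of chromosome 8 (GRCm38.p6). Col4a1 read 143, 224 and 215 in the wild-type samples and 239, 179 and 188 in the mutant samples. Mutant replicate 1 was the highest array and wild-type replicate 1 the lowest, with the others between. Col4a2 followed the same pattern, highest on mutant replicate 1 at 179 and lowest on wild-type replicate 1 at 101. The log2 differences were 0.073 ± 0.24 and 0.020 ± 0.26 (SE). The summed level of 7 endothelial markers was 204 to 278 in wild-type bone and 286 to 326 in mutant bone, and it too was highest on mutant replicate 1. Of these markers 1 alone, Ramp2, had groups that did not overlap, with the mutants higher, as in 9.18% of all probe sets. It read 52.2, 51.8 and 63.4 in wild-type and 80.4, 91.8 and 72.1 in mutant bone. The part of the summed level in the type IV values was not tested.

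Type VIII collagen is a short-chain network known from vessel walls and other sheets. Its chains had unlike patterns over the arrays. Col8a1 read 23.6, 46.4 and 47.7 in wild-type bone and 56.4, 34.4 and 54.3 in mutant bone. Wild-type replicate 1 was the lowest by far, and mutant replicate 2 lay below the other wild-type arrays. Col8a2 read 53.5, 57.9 and 62.5 in wild-type and 44.2, 43.9 and 54.3 in mutant bone, so that its wild-type replicate 1 was not low and mutant replicate 3 alone reached the wild-type range. The log2 differences were 0.34 ± 0.32 for Col8a1 (SE; limma adjusted p = 0.789) and -0.29 ± 0.19 for Col8a2 (SE; adjusted p = 0.735). Without wild-type replicate 1 the first was 0.0068 and the second -0.35.

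Type VI collagen forms beaded filaments around muscle fibres, chondrocytes and tendon cells. Of its 4 measured chains 1 had a higher and 3 a lower mean in mutant bone. The 3 main chains had a similar order of arrays, and genotype did not separate them. Col6a3, the longest chain, stood at 571, 975 and 807 in wild-type bone and 1004, 787 and 684 in mutant bone. Mutant replicate 1 and wild-type replicate 2 were the highest arrays, and mutant replicate 3 was the lowest of its group. Col6a1 was at 709.7 ± 139 in wild-type bone and 696 ± 152 in mutant bone and Col6a2 at 546 ± 118 in wild-type bone and 517 ± 104 in mutant bone (SD, n = 3), both highest on wild-type replicate 2 and lowest on mutant replicate 3. The log2 differences of these chains ran from -0.077 to 0.089. Col6a6, a further chain of this type, was at -0.20 ± 0.25 (SE) by the brighter and -0.095 ± 0.28 by the dimmer of its probe sets.

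**Figure D3:**
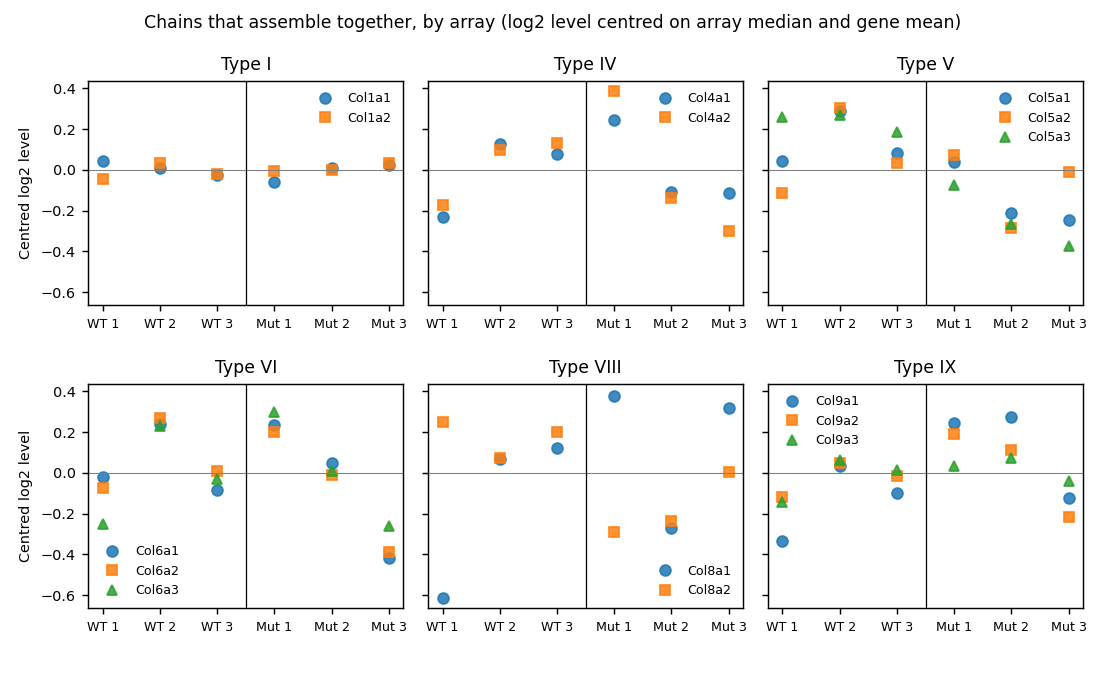
Chains that belong to the same collagen type, with each point the log2 level of a gene on an array after centring on the array's median and the gene's mean; wild-type arrays are left and mutant arrays right of the vertical line. The chains of type I and, within type VI, Col6a1 and Col6a2 keep close to each other on each array, whereas Col8a1 and Col8a2 part by most on wild-type replicate 1 and mutant replicate 1.

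Chains that assemble together were compared by their log2 ratio within each array, taken about its own mean over the 6 arrays. The ratio of Col1a2 to Col1a1 varied from -0.088 to 0.056 that of Col6a2 to Col6a1 from -0.058 to 0.090, and that of Col6a3 to Col6a1 more widely, from -0.23 to 0.16. For Col4a2 to Col4a1 the range was -0.19 to 0.14, for Col11a2 to Col11a1 -0.22 to 0.14 and for Col9a3 to Col9a1 -0.21 to 0.19. The ratio of Col8a2 to Col8a1 varied most among the 11 pairs compared, from -0.67 to 0.87. For Col5a3 to Col5a1 the range was -0.13 to 0.21 and for Col9a2 to Col9a1 -0.16 to 0.21. In both of these pairs every mutant ratio lay below every wild-type ratio, with mutant minus wild-type means of -0.20 and -0.21. In all other pairs compared the groups overlapped. How often the ratios of other gene pairs part by genotype in this way was not counted, so it is unknown whether this is unusual. These ratios are a description and were not tested.

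Of the 7 FACIT genes 4 had higher and 3 lower means, and those outside cartilage had no common direction. Col12a1, for the type XII collagen of tendon, ligament and periosteum, read 429.8, 731 and 647 in wild-type bone and 806, 636 and 656 in mutant bone. Mutant replicate 1 was the highest array, and the other mutant arrays lay among the wild-type values. Col12a1 differed by 0.24 ± 0.24 on the log2 scale (SE; limma adjusted p = 0.804) with all arrays and 0.016 without wild-type replicate 1. Col14a1, for the related type XIV of tendon and skin, was at 421 ± 132 in wild-type bone and 405 ± 116 in mutant bone (SD, n = 3), with values from 288 on mutant replicate 2 to 572 on wild-type replicate 2. Col16a1, a FACIT collagen of skin and cartilage, was at 155 ± 15.8 in wild-type bone and 142 ± 14.4 in mutant bone, and Col22a1, whose product is found at the junction of muscle and tendon, at 50.4 ± 3.12 in wild-type bone and 45.5 ± 10.3 in mutant bone (SD, n = 3). Their log2 differences were -0.055 ± 0.29, -0.13 ± 0.20 and -0.17 ± 0.22 in that order (SE). Mutant replicate 2 had the lowest value in each of these 3 genes.

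The multiplexins, collagens of the basement membrane zone with interrupted helices, were both lower in mutant bone by their means. Col15a1, whose type XV collagen underlies muscle fibres and capillaries, read 103, 131 and 145 in the wild-type samples and 98.1, 81.1 and 98.4 in the mutant samples. Every mutant value was below every wild-type value, although mutant replicates 1 and 3 came near wild-type replicate 1. The means were 126 ± 21.4 in wild-type bone and 92.5 ± 9.89 in mutant bone (SD, n = 3). The log2 difference, the largest negative one of the family, was -0.44 ± 0.21 (SE; 95% interval -0.91 to 0.036; limma adjusted p = 0.698).

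Col18a1, the source of the fragment endostatin, read 46.9, 57.0 and 72.0 in wild-type and 50.1, 42.6 and 48.4 in mutant bone. Here wild-type replicate 1 fell among the mutant values, and wild-type replicate 3 was the highest. The log2 difference of Col18a1 was -0.30 ± 0.22 (SE; adjusted p = 0.751). Leaving out 1 array at a time, Col15a1 ranged from -0.58 to -0.33 and Col18a1 from -0.45 to -0.14, the latter nearest 0 without wild-type replicate 3. For both genes wild-type replicate 3 was the highest array, as it was for the summed skeletal muscle genes. The second highest array for the muscle genes was mutant replicate 3, where Col15a1 and Col18a1 were not high, and the part of muscle in these values was not tested.

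The transmembrane collagens Col13a1, found at the neuromuscular junction and in cell adhesions, and Col23a1, together with Col7a1, whose type VII collagen anchors the epidermis to the dermis, were highest on wild-type replicate 1, the array on which 15 of the 33 collagens were lowest. Col13a1 had its top value of 32.6 there, and 21.9 to 24.6 on the others. Col23a1 read 43.1, 30.6 and 26.9 in wild-type bone and 34.8, 29.4 and 26.6 in mutant bone. Col7a1 read 26.4, 21.7 and 18.4 in wild-type and 21.3, 20.2 and 17.3 in mutant bone, so that 2 of its values were under 20. All 3 genes had overlapping groups, with log2 differences from -0.17 (Col7a1) to -0.10 (Col13a1). Without wild-type replicate 1 Col13a1 was at 0.079, Col23a1 at 0.068 and Col7a1 at -0.032. That array also had the highest summed level of epidermal genes, 1798 against 1248 on wild-type replicate 2 and 47.3 on wild-type replicate 3, and the part of skin in these values was not tested.

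Col26a1, a short collagen outside the main classes, read 38.2, 39.7 and 37.2 in wild-type bone and 33.0, 31.0 and 38.7 in mutant bone. Its wild-type arrays were close together, and mutant replicate 3 fell among them. The log2 difference was -0.17 ± 0.19 (SE; limma adjusted p = 0.826).

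**Figure D4:**
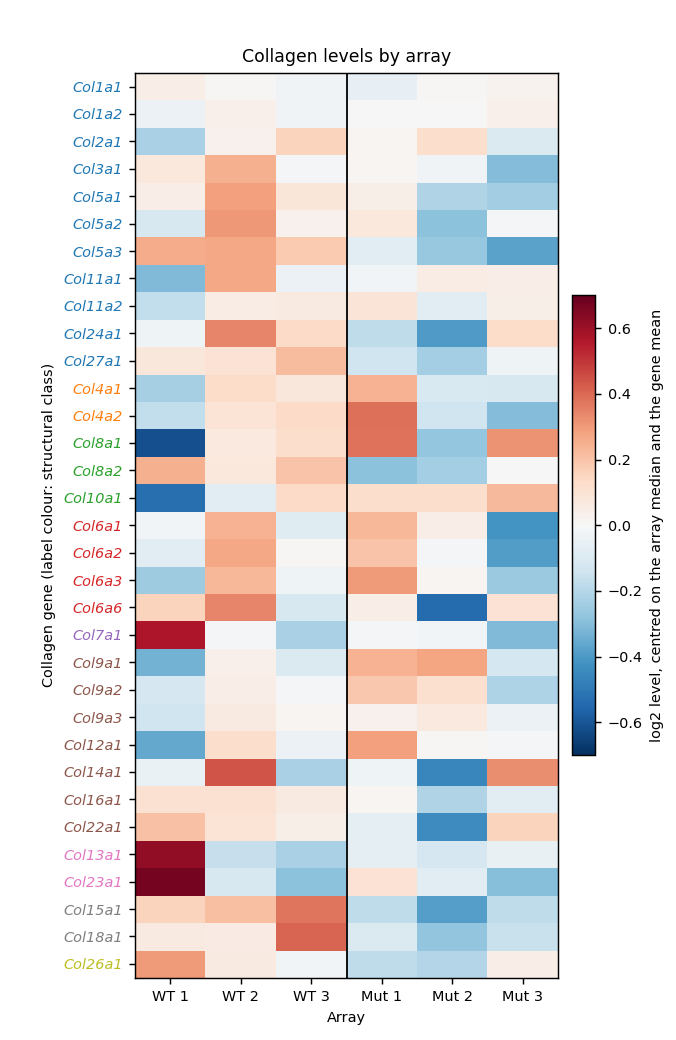
Log2 level of each collagen gene (vertical axis, grouped by class) on each array (horizontal axis), centred on the array's median and the gene's mean, with red above and blue below 0. Col13a1, Col23a1 and Col7a1 are red on wild-type replicate 1 where Col8a1 and Col10a1 are blue, and Col5a3, Col15a1, Col18a1 and Col27a1 are red on all wild-type and blue on all mutant arrays.

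Much of the sign pattern rested on wild-type replicate 1. Without that array 6 collagens had higher and 27 lower means in the mutants, and the median log2 difference was -0.16, where that of all probe sets was -0.033. An unadjusted p under 0.05 was then seen in 3 of 33 collagens, Col5a3, Col15a1 and Col18a1, all lower in the mutants, and in 6.61% of all probe sets (3.41% lower), and none passed after limma's adjustment over all probe sets. Weighting the arrays by their quality in limma, which gave wild-type replicate 1 a weight of 0.232, also left 6 higher and 27 lower, with 6 collagens at an unadjusted p under 0.05 (the same 3 with Col8a2, Col24a1 and Col27a1, all lower) and none past the adjusted threshold. In that fit 15.7% of all probe sets had such a p (8.85% lower). The smallest adjusted p of a collagen with array weights was 0.177, for Col15a1 at -0.63. Col5a3 and Col15a1 also had an unadjusted p under 0.05 after quantile normalization, as had 9.49% of all probe sets (3.58% lower), and after median centring, as had 9.6% (3.27% lower). Without wild-type replicate 2 the split was instead 18 higher and 15 lower, with a median of 0.074, and without mutant replicate 2 it was again 18 and 15.

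Across the 13 alternatives, 14 collagens kept their sign and 19 turned in at least 1. Some alternatives could not turn a sign. The intensity trend, the replicate block and leaving out the dimmest probe sets keep each log2 difference as it was. The mean over probe sets changes that of Col6a6 alone. The genes that stayed higher in the mutants were Col9a1, Col10a1 and Col12a1. Those that stayed lower were Col3a1, Col5a1, Col5a3, Col24a1 and Col27a1 of the fibrillar class, the multiplexins Col15a1 and Col18a1, and Col7a1, Col8a2, Col16a1 and Col26a1. Keeping a sign is not passing a test, and none of the 14 passed in any alternative.

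**Figure D5:**
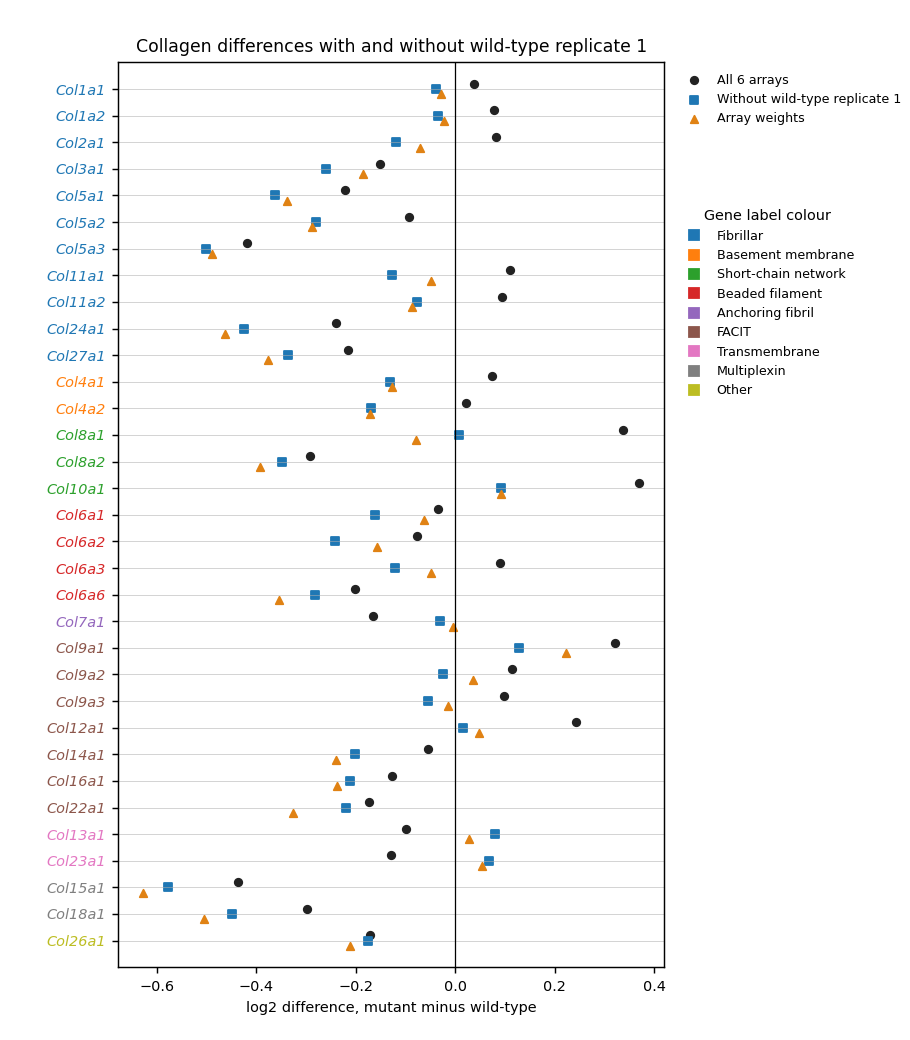
Log2 difference (mutant minus wild-type) of each collagen gene with all 6 arrays (circles), without wild-type replicate 1 (squares) and with array weights (triangles). The squares lie to the left of the circles for most genes, and to the right for Col13a1, Col23a1 and Col7a1.

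Collagen chains are modified and folded in the endoplasmic reticulum, and 21 genes of this machinery were measured of 32 listed names, which include older symbols of the same genes. Of these, 6 had higher and 15 lower means in the mutants (median log2 difference -0.13), and 0 had an unadjusted p under 0.05. Without wild-type replicate 1 the split was 1 higher and 20 lower (median -0.29), with 4 genes at an unadjusted p under 0.05. There were 7 such genes with array weights (median -0.30) and 3 without mutant replicate 3 (median -0.30), and none passed after adjustment. Over all probe sets the share with such a p was 6.61% and 15.7% in the first 2 of these fits. In the last it was 838 of 8997. Dropping any other array left a smaller median decrease than all arrays gave. It was -0.065 for wild-type replicate 3, -0.037 for wild-type replicate 2 and -0.052 for mutant replicate 2. When mutant replicate 1 was dropped it was -0.0099, with 9 genes higher and 12 lower. Serpinh1, for the collagen chaperone HSP47, read 123, 152 and 178 in wild-type bone and 62.2, 78.0 and 169.7 in mutant bone. Mutant replicates 1 and 2 lay below all wild-type arrays, and mutant replicate 3 was among them. Serpinh1 differed by -0.67 ± 0.35 on the log2 scale (SE; limma adjusted p = 0.708). Tmem38b, an ion channel of the endoplasmic reticulum that bone collagen synthesis needs, was at 0.49 ± 0.24 (SE; adjusted p = 0.702). It read 15.2, 18.0 and 23.6 in wild-type and 20.8, 26.9 and 32.0 in mutant bone. With 2 of its values under 20, the unstated background handling bears on this fold.

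After secretion the ends of the chains are cut off and the fibrils are cross-linked. Of 9 measured genes of these steps 6 were higher (3 without wild-type replicate 1), and 2 of them, Lox and Adamts3, had an unadjusted p under 0.05 (5.74% of all probe sets did so in this direction). None of the 9 had one without wild-type replicate 1, without mutant replicate 1 or without mutant replicate 2. Lox, for lysyl oxidase, which starts the cross-links, read 84.3, 179 and 132 in wild-type bone and 262, 264 and 172 in mutant bone, a log2 difference of 0.86 ± 0.30 (SE; limma adjusted p = 0.638). Mutant replicate 3 lay below wild-type replicate 2, so the groups overlapped. Adamts3, which cuts the front end of procollagen II, read 48.5, 87.5 and 62.4 in wild-type and 104, 98.4 and 94.8 in mutant bone, with all mutant values above all wild-type values (log2 difference 0.62 ± 0.24, SE; limma adjusted p = 0.665). That order was seen in 2 of the 9 genes, Adamts3 and Pcolce2, against 9.18% of all probe sets.

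Among 23 measured proteins bound to fibrils 13 were higher and 10 lower (10 and 13 without wild-type replicate 1). Dpt, for dermatopontin, which binds decorin and collagen, had the only unadjusted p under 0.05 (1.7% of all probe sets did so in this direction), with a log2 difference of -0.52 ± 0.23 (SE; limma adjusted p = 0.669). It read 64.4, 96.6 and 73.8 in wild-type and 48.3, 64.1 and 50.4 in mutant bone, so the groups did not overlap. All mutant values were lower in 2 of the 23 genes, Dpt and Tnxb, against 3.89% of all probe sets. Of 8 measured collagen receptors 6 were higher, and 2 without wild-type replicate 1. Itga10, for the integrin chain by which chondrocytes hold type II collagen, read 28.3, 47.8 and 40.4 in wild-type bone and 93.8, 78.3 and 44.2 in mutant bone, a log2 difference of 0.86 ± 0.31 (SE; limma adjusted p = 0.649). Mutant replicates 1 and 2 were high, and mutant replicate 3 lay within the wild-type range. Itga10 alone of the 8 receptors had an unadjusted p under 0.05 (5.74% of all probe sets did so in this direction). None of the 8 had one without wild-type replicate 1, without mutant replicate 1 or without mutant replicate 2.

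All 9 measured genes of the collagen breakdown list had higher means in the mutants, against 56.7% of all probe sets. The list holds proteases and also the protease inhibitor genes Timp1 (log2 difference 0.013), Timp2 (0.28) and Timp3 (0.57). In each of the 9 genes wild-type replicate 1 was the lowest array. Without that array 7 were higher and 2 lower, as with array weights, and 8 were higher after quantile normalization or median centring. An unadjusted p under 0.05 was seen in 3 (5.74% of all probe sets had one in this direction). They were the cathepsin gene Ctsk (log2 difference 1.16 ± 0.34, SE), Mmp13 (1.10 ± 0.34, SE) and the gelatinase gene Mmp9 (0.78 ± 0.25, SE). Their limma adjusted p-values were 0.59, 0.591 and 0.595. Without wild-type replicate 1 the list again had 3 genes at an unadjusted p under 0.05, counted in either direction (6.61% of all probe sets). The other fits of this list gave 3 or 4, and none passed after adjustment. The median log2 difference was 0.45 with all arrays and 0.10 without wild-type replicate 1. The groups did not overlap in 4 of the 9 genes, Mmp2, Mmp9, Mmp13 and Ctsk, with the mutants higher (9.18% of all probe sets). The summed level of 4 osteoclast markers, of which Ctsk and Mmp9 are 2, was 594 to 1028 in wild-type bone and 1177 to 1690.3 in mutant bone, and its part in these values was not tested.

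Of 10 measured transcription factors that act on collagen genes 6 were higher and 4 lower (3 and 7 without wild-type replicate 1), with none at an unadjusted p under 0.05. Sox9, which drives the type II, IX and XI genes in cartilage, read 53.4, 90.5 and 70.1 in wild-type bone and 85.5, 85.5 and 81.4 in mutant bone (log2 difference 0.27 ± 0.23, SE). The members of smallest p were Scx, a tendon factor (-0.55 ± 0.37, SE; limma adjusted p = 0.735), and Trps1, a factor of growth plate chondrocytes (0.46 ± 0.35, SE; adjusted p = 0.76).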

How the data were processed

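RNA from 6 bone samples was measured on single-colour Affymetrix arrays, 1 per sample, per the labels. The authors deposited linear intensities, 1 per probe set and array. How background, summarisation and scaling were handled is not given in the sources used here, and every probe set reached 20 on at least 3 arrays. Probe sets were named by the platform's 2016 annotation, and all 33 symbols matched RefSeq (GRCm38.p6) by Entrez identifier. A gene with several probe sets was represented by the brightest on average.

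No normalization was added, and log2 values of all 8997 probe sets were fitted by genotype in limma 3.58.1 (lmFit, then eBayes; R 4.3.3, two-sided, Benjamini-Hochberg over all probe sets, threshold 0.05). SE and 95% intervals are moderated. Python 3.11.15 and pandas 2.3.3 made the tables and matplotlib 3.10.9 the plots, and the fit was tested on simulated data. Alternatives were quantile normalization, median centring, array weights, an intensity trend with robust variances, leaving out the dimmest 25% of probe sets, the replicate number as a block, the mean over a gene's probe sets and leaving out each array.

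The members and lists were chosen with earlier results of these data known. Per-array values are given for the brightest gene of each class, all cartilage types and the 5 largest differences each way. In other lists, genes with an unadjusted p under 0.05 or the 2 of smallest p were named, and Sox9, Panx3 and Ihh were added after their values were seen. No slide or scan date was used. The number of arrays limits the precision.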

Additional observations from a re-analysis of the deposited data

How the results depend on the processing

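No collagen passed under any of the 13 alternatives. The pooled SD between arrays of a group exceeded each move of the median log2 difference. This held for the family and each class of at least 2 genes, for the short-chain network only just (0.421 against 0.417). Leaving out 1 of 3 arrays can move a group mean by only part of that SD. The comparison could thus hardly fail in those fits, and it does not show that the medians were stable. The median changed sign in all but the multiplexins. It ran from -0.18 to 0.074 for the family, -0.26 to 0.072 for fibrillar and -0.15 to 0.15 for basement membrane genes. The range was -0.079 to 0.51 for short-chain, -0.20 to 0.11 for beaded filament and -0.056 to 0.19 for FACIT genes. For transmembrane genes it was -0.24 to 0.073 and for cartilage genes -0.066 to 0.20. The count of probe sets called, 0 with all arrays, was 4 with array weights and 15 without mutant replicate 3, and 0 under the others. Array weights turned the sign of Col1a1 (-0.029), Col1a2 (-0.023), Col2a1 (-0.070), Col4a1 (-0.13), Col4a2 (-0.17), Col6a3 (-0.049), Col8a1 (-0.079), Col9a3 (-0.015), Col11a1 (-0.049), Col11a2 (-0.087), Col13a1 (0.028) and Col23a1 (0.053) on the log2 scale. Median centring turned Col1a1 (-0.019) and Col4a2 (-0.036), and quantile normalization turned Col4a2 (-0.0023) and Col9a3 (-0.0064). Leaving out each array in turn turned the sign of Col1a1 (-0.039 to 0.088), Col1a2 (-0.034 to 0.15), Col2a1 (-0.12 to 0.21), Col4a1 (-0.13 to 0.19), Col4a2 (-0.19 to 0.15), Col5a2 (-0.28 to 0.072), Col6a1 (-0.18 to 0.14), Col6a2 (-0.24 to 0.074), Col6a3 (-0.12 to 0.26), Col6a6 (-0.33 to 0.025), Col9a2 (-0.025 to 0.22), Col9a3 (-0.056 to 0.19), Col11a1 (-0.13 to 0.31), Col11a2 (-0.076 to 0.18), Col13a1 (-0.21 to 0.079), Col14a1 (-0.26 to 0.19), Col22a1 (-0.32 to 0.013) and Col23a1 (-0.27 to 0.068), given as lowest to highest. The cause was not tested. The dimmest 25% of probe sets held Col7a1, Col13a1 and Col24a1, which were not tested without them.

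With the replicate number as a block 0 probe sets passed and 681 had an unadjusted p under 0.05, against 669 without it. It leaves each log2 difference as it was and changed no call; the smallest adjusted p of a collagen was 0.641. Deviations of same-numbered arrays correlated at -0.107, -0.026 and 0.315 over all probe sets, and wild-type replicate 1 correlated best with mutant replicate 2 (0.338). With 3 arrays per group these correlations cannot show whether the replicate numbers follow the litters, which stays unknown. Signal over background was not given, so how much of the values of dim genes such as Col7a1 and Col24a1 is background is unknown.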
